A study of Mus musculus with 16 samples.

Results

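The replication-dependent histone genes encode the linker histone H1 and the core histones H2A, H2B, H3 and H4 that package newly made DNA. They were chosen as the protein-coding genes of the GENCODE M21 annotation (mouse build mm10) whose symbols start with Hist1h, Hist2h, Hist3h or Hist4h, which gave 67 of 21851 protein-coding genes. Hematopoietic stem cells (HSCs), which give rise to blood, were sorted from bone marrow of C57BL/6 mice as cells positive for Sca-1, CD150 and c-kit and negative for lineage markers, IL-7R, CD34, CD48 and Flt3. Young mice were 10 weeks old and aged mice were 20 months old, and these libraries included no other genotype or treatment. ChIP-seq covered H3K4me3, H3K27me3 and H2AK119ub1, each in duplicate at each age, and with inputs the labels list 16 libraries. The peaks came as 1 pooled list per mark and age, so each of the 6 lists is a single value without replicates, and differences between young and aged HSCs are given without a test.

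Replication-dependent histone genes are transcribed mainly during DNA synthesis, and many are arranged in tight clusters in which an H2A and an H2B gene face away from each other and share a promoter. Their messenger RNAs carry no poly(A) tail and end in a short stem-loop instead. HSCs in adult marrow are mostly quiescent. H3K4me3 marks active or poised start sites, whereas H3K27me3 and H2AK119ub1 are placed by Polycomb repressive complexes, which silence genes.

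The 67 genes lay in 7 groups separated from one another by at least 100 kb. Histone cluster 1 on chromosome 13 held 54 genes in 4 groups, named A to D here by position. Group A (chr13:21715763-21837530) held 18 genes, group B (chr13:22035164-22043676) 5, group C (chr13:23531050-23764406) 29 and group D (chr13:23933773-23934851) 2. Hist2 (chr3:96219865-96270132) held 10 genes, Hist3 (chr11:58948920-58956830) 2, and Hist4 a single gene, Hist4h4, on chromosome 6. By class there were 6 H1, 18 H2A, 18 H2B, 12 H3 and 13 H4 genes. The annotation gave 62 of them a single exon. In 13 pairs the genes faced away from each other, with starts 175 to 659 bp apart (median 267), and 12 of these pairs joined an H2A with an H2B gene.

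The bases before the start of the genes that carried H3K4me3 are given for the H1 genes and for the stretch between Hist1h2ac and Hist1h2bc. They were read from the mm10 sequence on the strand of the gene, and capitals mark TATAAA (the TATA box), CCAAT, ATTTGCAT (the octamer) and AAACACA (known from H1 promoters), on either strand.
Hist1h1b, chr13:21780626-21780875, minus strand: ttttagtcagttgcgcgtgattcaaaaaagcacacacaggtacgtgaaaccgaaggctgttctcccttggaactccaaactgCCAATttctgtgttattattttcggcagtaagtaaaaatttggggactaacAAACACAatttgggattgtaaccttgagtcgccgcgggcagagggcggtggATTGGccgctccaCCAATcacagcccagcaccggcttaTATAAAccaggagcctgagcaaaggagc
Hist1h1c, chr13:23738558-23738807, plus strand: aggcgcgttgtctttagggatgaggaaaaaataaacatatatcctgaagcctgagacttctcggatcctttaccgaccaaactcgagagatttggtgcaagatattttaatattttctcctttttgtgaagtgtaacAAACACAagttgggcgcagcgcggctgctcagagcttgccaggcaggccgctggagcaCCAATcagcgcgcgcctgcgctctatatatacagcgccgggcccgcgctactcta
Hist1h1e, chr13:23622559-23622808, minus strand: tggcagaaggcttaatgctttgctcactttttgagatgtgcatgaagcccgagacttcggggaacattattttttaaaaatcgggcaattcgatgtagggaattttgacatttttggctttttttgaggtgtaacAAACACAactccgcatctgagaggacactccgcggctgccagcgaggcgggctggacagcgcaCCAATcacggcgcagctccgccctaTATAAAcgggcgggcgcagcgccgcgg
Hist1h1a, chr13:23763416-23763665, plus strand: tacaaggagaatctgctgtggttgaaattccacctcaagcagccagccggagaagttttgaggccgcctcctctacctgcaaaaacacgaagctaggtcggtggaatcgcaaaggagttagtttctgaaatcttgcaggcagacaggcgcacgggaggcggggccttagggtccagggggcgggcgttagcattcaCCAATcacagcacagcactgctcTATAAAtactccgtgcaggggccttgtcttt
Hist1h2ac to Hist1h2bc, chr13:23683949-23684198, plus strand: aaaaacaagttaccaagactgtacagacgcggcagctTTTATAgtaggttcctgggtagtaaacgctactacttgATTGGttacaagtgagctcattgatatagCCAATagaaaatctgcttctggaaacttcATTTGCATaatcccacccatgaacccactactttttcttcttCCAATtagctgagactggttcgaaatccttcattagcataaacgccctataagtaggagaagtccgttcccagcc
In the H1 genes Hist1h1b, Hist1h1e and Hist1h1a, TATAAA began 28, 27 and 31 bases before the start, and CCAAT began 53, 52 and 54 bases before it. Hist1h1c held CCAAT 55 bases before its start without a TATA box in these letters. The motif AAACACA stood 117, 113 and 115 bases before the start of Hist1h1b, Hist1h1c and Hist1h1e, and was not found in the 250 bases before Hist1h1a. The stretch of 250 bp between Hist1h2ac and Hist1h2bc held 3 CCAAT, 1 octamer and 1 TATAAA, the last on the strand of Hist1h2ac.

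These letters recurred through the family. In the 250 bases before the first start, CCAAT was present in 54 of the 67 genes (80.6%, against 36.0% of all protein-coding genes), TATAAA in 34 (50.7% against 11.4%) and ATTTGCAT in 15 (22.4% against 1.44%). CCAAT was found in all 18 H2A and all 18 H2B genes, in 9 of 12 H3 genes, in 5 of 6 H1 genes and in 4 of 13 H4 genes. ATTTGCAT was found in 7 H2A and 8 H2B genes and in no H1, H3 or H4 gene. AAACACA, searched only after the H1 promoters had been read, was found in 4 of 6 H1 genes and in 8 of 67 genes (11.9% against 5.61%). The members of a facing H2A and H2B pair share most of these bases and are not separate counts. The starts of the remaining pair, Hist1h2bh and Hist1h3f, lie 659 bp apart, so their 250 bases do not overlap. For 11 genes the annotated start is the start codon itself, so their 250 bases include part of the transcript. For Hist1h2be and Hist1h1d the searched bases lie before annotated starts 35168 and 1828 bp from the start codon. Hist1h2be counts here with CCAAT and without ATTTGCAT, although the bases before its start codon, shown further below, hold 1 octamer. Hist1h1d counts as an H1 gene without CCAAT or AAACACA.

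The core of the histone stem-loop, CTTTTNAG, was searched in the 100 bases after the stop codon on the strand of the gene. It was present in 64 of 67 genes (95.5%, against 1.37% of all protein-coding genes), 26 to 63 bases after the stop codon. The remaining 3 genes were Hist2h2be, Hist1h3g and Hist1h4a. The core and its 4 neighbouring bases on each side form a word of 16 bases whose outer 6 bases could pair in all 64 genes, with G·U pairs allowed. Only 7 different words occurred, and the commonest was shared by 41 genes. The word is shown in capitals for 4 genes, with 5 bases on either side.
Hist1h1b: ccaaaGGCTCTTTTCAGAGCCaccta
Hist1h1c: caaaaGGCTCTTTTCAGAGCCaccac
Hist2h4: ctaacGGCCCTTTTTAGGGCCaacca
Hist1h2ac: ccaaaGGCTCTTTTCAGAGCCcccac

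H3K4me3 was listed at few of these genes. A gene was called marked when a peak overlapped the 1 kb on either side of any of its start sites by at least 1 bp. In the young list 12 of 67 histone genes were marked (17.9%, Wilson 95% interval 10.6 to 28.7), and 33.8% of all protein-coding genes were. In the aged list 4 of 67 were marked (5.97%, interval 2.35 to 14.4), against 23.3% of all genes. The intervals cover counting error over genes only, and neighbouring genes share peaks. In both lists 3 genes were marked, Hist1h1b, Hist1h2be and Hist2h4. A further 9 were marked in the young list alone, 1 (Hist1h1c) in the aged list alone, and 54 in neither. Of the 12 young-marked histone genes 25.0% were also marked in the aged list, compared with 51.8% of all young-marked genes. In the other direction, 75.0% of the 4 aged-marked histone genes were also marked in the young list, near the 75.2% of all aged-marked genes. The young list was longer (11371 peaks against 6723), and with the young list reduced to its 6723 peaks of highest −log10 q-value (q being the peak caller's p after adjustment over all tests) 6 histone genes were marked. These 6 genes were 8.96% of the family, and 23.4% of all genes were then marked.

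**Figure D1:**
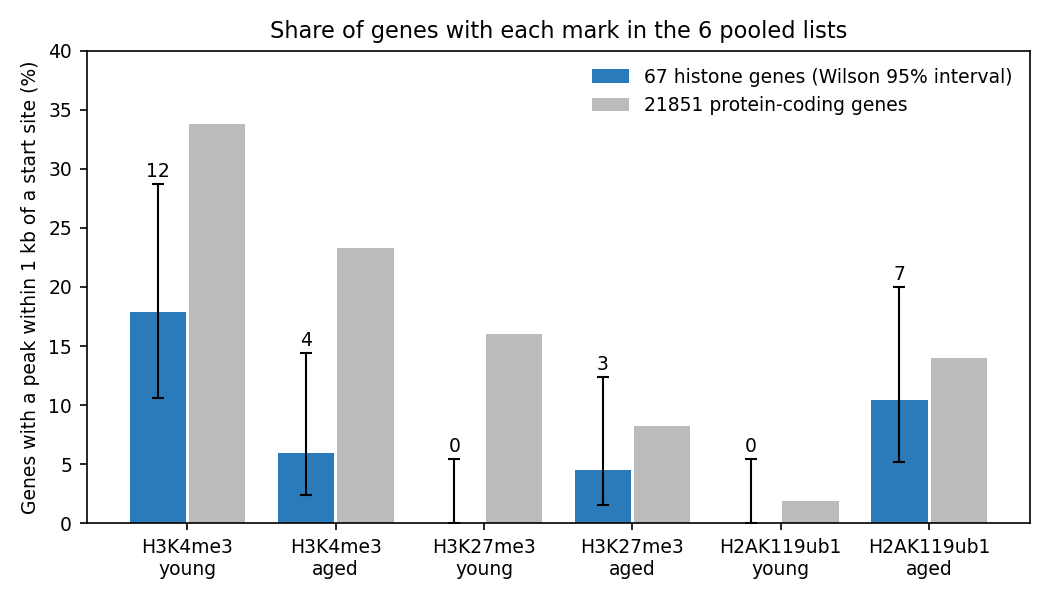
Share of genes with a peak within 1 kb of a start site (y axis, percent) in each of the 6 pooled lists (x axis). Blue bars are the 67 histone genes with Wilson 95% intervals (up to 5.42% where no gene was marked) and the number of marked genes above, and grey bars are all 21851 protein-coding genes. The blue bar is lower than the grey bar in every list, and it is at 0 in the young lists of H3K27me3 and H2AK119ub1.

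Of 7 genes known from HSCs (Kit, Slamf1, Mecom, Hlf, Procr, Gata2, Meis1), 5 carried H3K4me3 in each list and 4 carried it in both. Of all genes, 33.8% were marked in the young list and 23.3% in the aged one. Slamf1 had no peak in either list, Kit none in the young list and Gata2 none in the aged one. The count does not check the cell type, because no gene of another blood cell is set beside it. These genes are part of a longer list of markers and were chosen with earlier results known. A whole number of reads could be recovered from the fold enrichment and the p-value for 100% of H3K4me3 peaks in both lists. The lowest background under a peak was 3.70 reads in the young list and 3.52 in the aged one, and this value stands for the reads covering an average base of the pooled libraries. The peaks at histone genes rested on 16 to 25 reads in the young list and 18 to 24 in the aged list.

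By class, 3 of 6 H1 genes (Hist1h1a, Hist1h1b, Hist1h1e) were marked in the young list and 2 (Hist1h1b, Hist1h1c) in the aged list. Of all protein-coding genes, 33.8% were marked in the young list and 23.3% in the aged one. The H2A class had 2 of 18 marked in the young list and 0 in the aged one, and the H2B class 3 and 1 of 18. The H3 class had 2 and 0 of 12, and the H4 class 2 and 1 of 13. Hist1h1e was counted only through the weakest young peak (2.35-fold, −log10 q 1.41), which was also counted for Hist1h2be. Young peaks over the Hist1h1c and Hist1h1d records lay outside the windows of these genes. So did an aged peak in the Hist1h1e record, and the H1 counts therefore depend on the window edges. With 6 genes and no replicates the class difference was not tested.

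Hist1h1b, which encodes a linker histone, had an H3K4me3 peak of 3.73-fold enrichment in the young list (chr13:21779595-21780001, −log10 q 3.92) and of 4.86-fold in the aged list (chr13:21779552-21779765, −log10 q 5.83). The 2 peaks overlapped. The young peak covered the 3′ end of the gene record and the aged peak lay just beyond it, with summits 878 and 989 bp downstream of the start. A further aged peak of 5.21-fold (chr13:21779029-21779389) lay 1236 bp from the start, outside the window.

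Hist1h1c, also a linker histone gene, had an aged peak of 5.08-fold (chr13:23739445-23739704, −log10 q 6.42) inside its gene record. In the young list a wider peak of 679 bp and 4.89-fold (chr13:23739861-23740539) began 157 bp away from the aged one and 1053 bp from the start. The gene was therefore counted in the aged list alone, although both lists held a peak over its record.

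Hist1h1a, another linker histone gene, had a young peak of 4.68-fold that began 4 bp downstream of its start (chr13:23763670-23763909, −log10 q 5.94, 21 reads over a background of 3.70). The nearest aged peak was 23966 bp away. Hist1h1d had no peak within 1 kb of its annotated start, but a young peak of 3.83-fold lay inside its record, 825 bp from its start codon, because that start is 1828 bp from the start codon. Hist1h1t, the linker histone gene of the testis, had no peak in any list, and neither had Hist1h2aa and Hist1h2ba, which encode testis forms of H2A and H2B.

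Hist2h4, an H4 gene, carried the H3K4me3 peak of highest −log10 q-value among the young peaks at histone genes (5.31-fold, −log10 q 7.77, rank 876 of 11371). The aged peak at the same place was weaker by fold (3.96-fold, −log10 q 3.85, rank 4093 of 6723). Both lay upstream of the gene and outside its record, with summits at -336 bp (chr3:96263543-96264017) and -569 bp (chr3:96263646-96264049) relative to the start. It was the only marked gene of the 10 in Hist2.

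Hist1h2be, an H2B gene, needs its annotation read with its values. Its annotated start sites lie inside the record of Hist1h1e, 35168 bp from its start codon. There the young list held a peak of 4.17-fold (chr13:23620850-23621144, −log10 q 5.52) and the aged list one of 5.53-fold (chr13:23620812-23621137, −log10 q 7.63, rank 272 of 6723), the highest fold of any aged peak at a histone gene. The same interval is part of the Hist1h1e record, so that H3K4me3 of the 2 genes cannot be told apart here. Beside the start codon of Hist1h2be lay other peaks, of 3.63-fold in the young list (chr13:23585124-23585363) and of 3.98-fold and 3.41-fold in the aged list (chr13:23585106-23585322 and chr13:23586293-23586650), between 337 and 634 bp from it. With windows around start codons in place of start sites, a choice made after these positions were seen, 13 genes were marked in the young list and 4 in the aged one, and Hist1h2be was again among those marked in both. The 200 bases that end 50 bases before this start codon, which the annotation places in an intron, hold 3 CCAAT and 1 octamer.
Hist1h2be, chr13:23586007-23586206, minus strand: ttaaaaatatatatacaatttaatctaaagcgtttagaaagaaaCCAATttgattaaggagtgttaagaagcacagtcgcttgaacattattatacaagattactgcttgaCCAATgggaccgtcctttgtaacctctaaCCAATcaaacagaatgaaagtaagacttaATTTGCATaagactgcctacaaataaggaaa

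The other young-marked genes were spread over groups A and C and Hist3. Hist1h3i, an H3 gene in group A, had a young peak of 4.89-fold (chr13:21783566-21783765, −log10 q 6.54) whose summit was at -276 bp relative to the start. Hist1h2ac and Hist1h2bc shared a young peak of 3.75-fold and 604 bp (chr13:23684703-23685306, −log10 q 5.11) that lay inside the Hist1h2bc record and rested on 25 reads over a background of 5.94. It did not reach the stretch between the 2 starts shown above. Hist1h2bh and Hist1h3f shared a young peak of 3.61-fold at the start of Hist1h3f. The weakest peak, of 2.35-fold with a −log10 q of 1.41, lay in the Hist1h1e record and was counted for Hist1h1e and Hist1h2be. Hist1h4h had a pair of weak young peaks (2.69-fold and 3.43-fold), and Hist3h2a a young peak of 3.83-fold in a stretch where the Trim17 record overlaps.

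**Figure D2:**
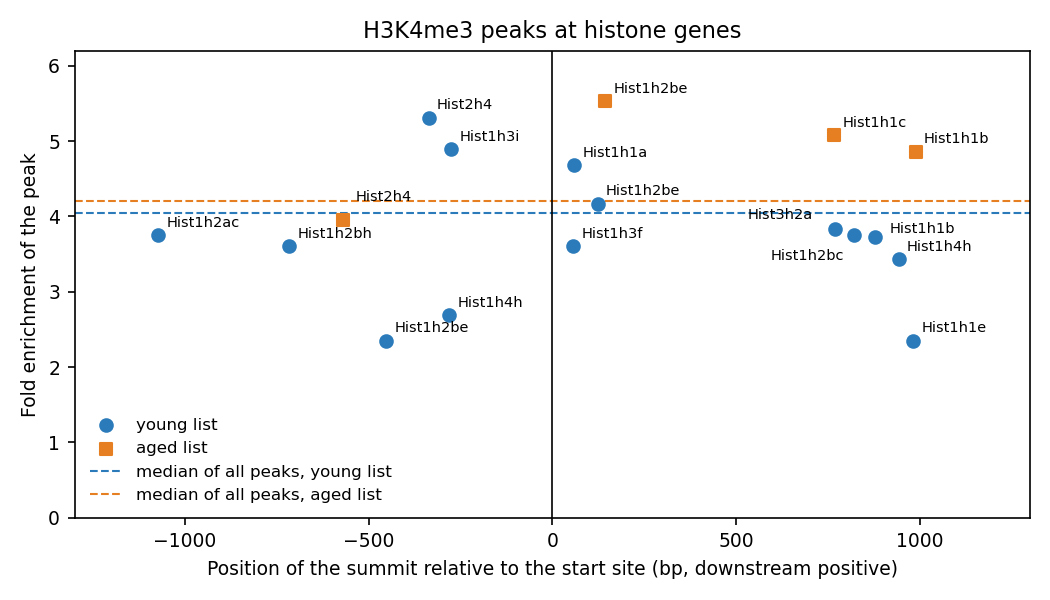
Fold enrichment (y axis) of each H3K4me3 peak at a histone gene against the position of its summit from the start site in bp (x axis, downstream positive). A peak shared by 2 genes is drawn once for each, blue circles are the young list, orange squares the aged list, and dashed lines are the medians of all peaks in each list (4.04 and 4.20). Folds ran from 2.35 to 5.31 in the young and from 3.96 to 5.53 in the aged list. Of the 18 points drawn, 11 lay downstream of the start. Each peak shared by 2 genes gave a point on either side of the start, so the points are not separate summits.

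The 11 young peaks at histone genes had a median enrichment of 3.75-fold, and 4 of them were above the median of 4.04-fold of all young H3K4me3 peaks. The 4 aged peaks had a median of 4.97-fold, and 3 of them were above the aged median of 4.20-fold. By group, C had 8 of 29 genes marked in the young list and 2 in the aged one, and A had 2 and 1 of 18. The shares of all protein-coding genes were 33.8% and 23.3%. Groups B and D and Hist4 had none at either age, but with 5, 2 and 1 genes they cannot be set apart from these shares. Differences between groups were not tested. Of the 13 facing pairs, 2 were marked at both members in the young list (Hist1h2ac with Hist1h2bc, Hist1h2bh with Hist1h3f). Each of these 2 pairs rested on 1 shared peak. None was marked at one member alone, and none was marked in the aged list. The starts of a pair lie 175 to 659 bp apart, so its windows of 1 kb on either side mostly overlap. Agreement within a pair was thus largely fixed by the windows and does not show joint marking of the 2 genes. Besides the 11 and 4 peaks at start sites, the groups and their flanks of 1 kb held 3 young and 4 aged H3K4me3 peaks farther from any annotated histone gene start. Hfe, an iron-regulating gene inside group C and the only other protein-coding gene whose record lies wholly within a group, was marked by 1 of the aged peaks (3.00-fold) and by no young peak.

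**Figure D3:**
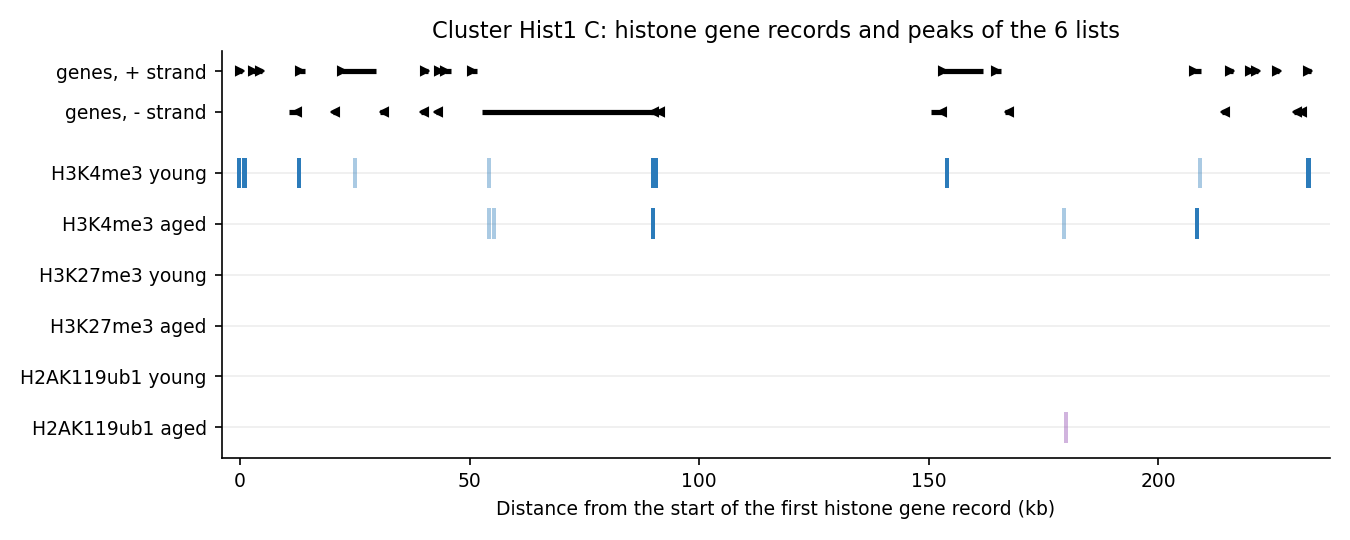
Map of group C of Hist1, with distance from the first histone gene record in kb on the x axis, gene records by strand in the top rows (arrowheads at the starts) and the peaks of each list below. Dark bars are peaks within 1 kb of a histone gene start, pale bars are other peaks, and narrow peaks are widened to be visible. H3K4me3 peaks are spread over the whole group. Of its 29 genes, 8 were marked in the young list and 2 in the aged one, against 33.8% and 23.3% of all genes. The Polycomb marks are represented by 1 pale aged H2AK119ub1 region at Hfe.

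The Polycomb marks were listed at histone genes in the aged lists alone, all of them in group A. H3K27me3 was at 0 of 67 histone genes in the young list, which allows a share of up to 4.48% by the limit of 3 counts (the Wilson interval ends at 5.42%), against 16.0% of all genes. In the aged list it was at 3 of 67 (4.48%, Wilson interval 1.53 to 12.4), against 8.24% of all genes. H2AK119ub1 was at 0 of 67 in the young list, with the same upper limits, against 1.91% of all genes, and a share of that size could not be detected among 67 genes. In the aged list it was at 7 of 67 (10.4%, interval 5.15 to 20.0), against 14.0% of all genes. The lists differed in length, with 63142 young and 20419 aged H3K27me3 regions and 2593 young and 17768 aged H2AK119ub1 regions. With the aged H2AK119ub1 list reduced to its 2593 widest regions, 0 of 67 histone genes and 3.53% of all genes were marked, so that the count of 0 was near the share of all genes.

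The 7 genes with aged H2AK119ub1 were Hist1h2bm, Hist1h4k, Hist1h2ak, Hist1h2bn, Hist1h1b, Hist1h2an and Hist1h2bp, which encode H2B, H4, H2A and H1. These genes had 7 regions in the aged list, 200 to 540 bp wide with enrichments of 3.01 to 3.42-fold. The facing genes Hist1h2ak and Hist1h2bn shared 1 region, and Hist1h2an and Hist1h2bp shared 2, so the 7 genes are not separate counts. Their −log10 q-values of 1.22 to 2.07 lay around the median of 1.72 of that list, and none reached 3. The widest, of 540 bp, lay inside the Hist1h2bp record (chr13:21788165-21788704, 3.42-fold). Hist1h1b had 1 region on either side of its start (chr13:21780789-21781088, 3.35-fold, upstream, and chr13:21779731-21780031, 3.07-fold, over the gene). The nearest young H2AK119ub1 region was at least 208194 bp from each of these regions.

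The aged H3K27me3 regions lay at Hist1h1b (chr13:21781322-21782287, 966 bp, 3.24-fold, upstream of the gene) and inside the Hist1h2bp record, within 1 kb of the Hist1h2an and Hist1h2bp starts (chr13:21788164-21788363, 200 bp, 3.22-fold). The latter overlapped the widest H2AK119ub1 region. The former overlapped neither H2AK119ub1 region counted for Hist1h1b, but a further one, outside the window of that gene, lay inside it (chr13:21781928-21782191). By the windows of 1 kb, both marks were listed at 3 of 67 histone genes in the aged lists (4.48%). This was near the 4.99% of all protein-coding genes, and 2 of the 3 genes shared 1 H3K27me3 region. Hist1h1b had all 3 marks in the aged lists, as did 0.618% of all genes, and in the pooled lists it cannot be told whether the marks lay in the same cells.

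Over the 122 kb of group A, 12 aged H2AK119ub1 regions covered 4179 bp (3.43%) and 4 aged H3K27me3 regions covered 1.92%. The young lists held no H2AK119ub1 region and 1 H3K27me3 region (chr13:21790621-21791444, 824 bp, 3.50-fold) there. This young region overlapped an aged one (chr13:21790620-21791339, 3.45-fold), 3113 bp from the start of Hist1h2bp, so H3K27me3 near this gene was listed at both ages. Groups B and D, Hist2, Hist3 and Hist4 held no region of either Polycomb mark, and group C held 1 aged H2AK119ub1 region, at Hfe.

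**Figure D4:**
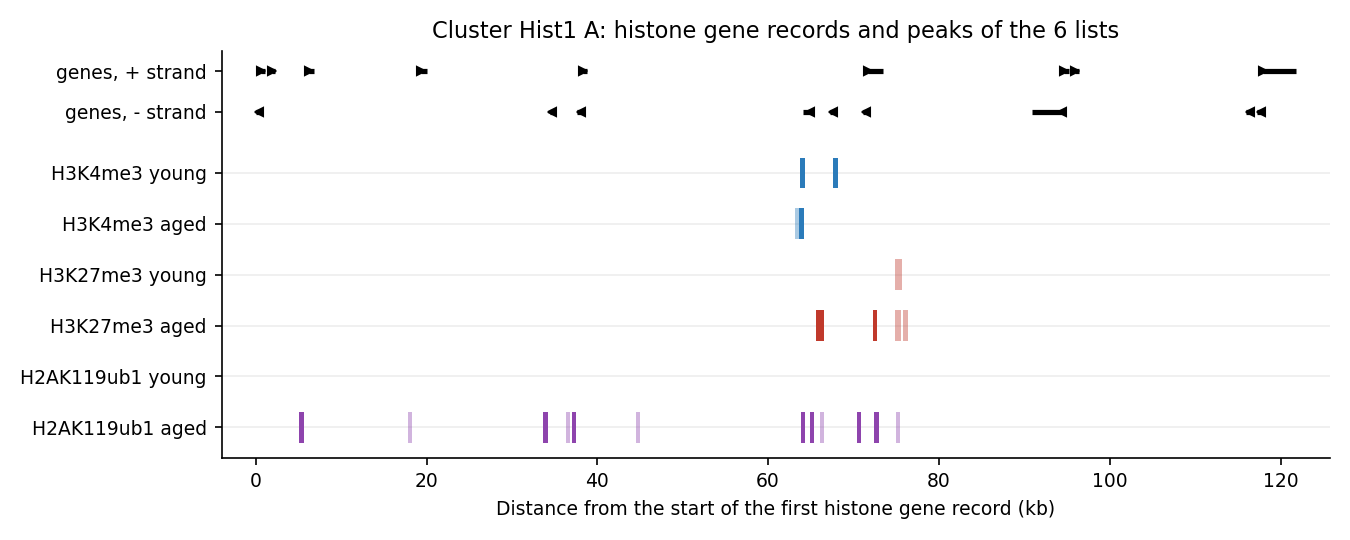
Map of group A of Hist1, drawn as for group C. Aged H2AK119ub1 and H3K27me3 regions lie at 7 and 3 histone genes in the left and middle part of the group, and the right part, with the repeated genes Hist1h2bq, Hist1h2ao, Hist1h4m, Hist1h4n, Hist1h2ap and Hist1h2br, holds no peak.

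Several histone genes are close copies of each other, which limits where a read can be placed. For each gene the window of 2001 bases around the first start was split into words of 60 bases, about the length of a read, and the words found once in the genome were counted. The median share of such unique words was 82.4% in the histone genes and 100% in all protein-coding genes. At least 90% of the words were unique in 19 of 67 histone genes (28.4%), and in 88.8% of all genes. Hist1h2bq, Hist1h2ao, Hist1h2ap and Hist1h2br had no unique word, and Hist1h4m and Hist1h4n had 8.60% and 10.2%. Of the 250 bases before Hist1h2ao shown here, 220 occur as 1 unbroken run before Hist1h2ap.
Hist1h2ao, chr13:21810215-21810464, plus strand: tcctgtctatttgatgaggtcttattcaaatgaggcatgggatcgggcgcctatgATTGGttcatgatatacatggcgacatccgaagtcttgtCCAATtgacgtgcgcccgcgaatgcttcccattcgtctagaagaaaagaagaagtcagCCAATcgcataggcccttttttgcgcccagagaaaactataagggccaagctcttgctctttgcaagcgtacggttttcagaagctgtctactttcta
In Hist2, the window of Hist2h3c1 shared 76.4% of its words with that of Hist2h3c2, and Hist2h2aa1 shared 53.1% with Hist2h2aa2. H1 genes had 93.0% to 100% unique words.

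The counts of marked genes were set beside this share. Of the 19 histone genes with at least 90% unique words, 6 had H3K4me3 in the young list (31.6%) and 4 in the aged list (21.1%), next to 37.6% and 25.9% of all genes with such windows. Of the 38 with 50 to under 90%, 6 were marked in the young list (15.8%) and 0 in the aged list (an upper limit of 7.89%), next to 6.86% and 4.47% of all genes. All 10 with under 50% had no peak of any mark in any list, next to 0.358% and 0.179% of all genes with H3K4me3 in the young and aged lists. Of the 7 genes with aged H2AK119ub1, 6 were in the middle class. The part of repeated sequence in the low share of marked histone genes was not tested. Hist1h2be was counted here by its annotated start, whose window lies in the Hist1h1e record and is 100% unique.

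**Figure D5:**
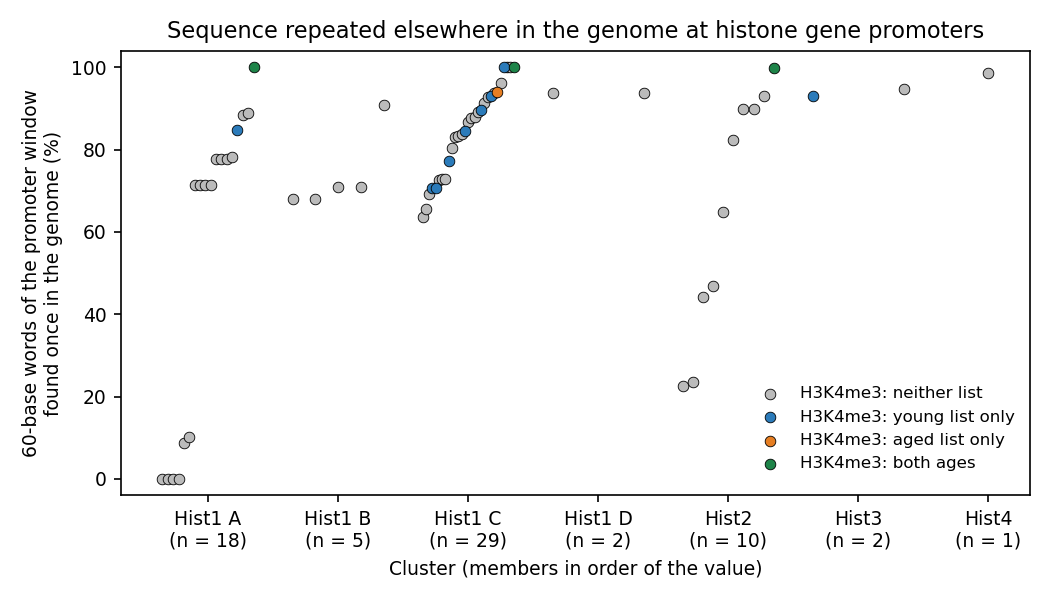
Share of 60-base words found once in the genome (y axis, percent) in the window of each histone gene, by group (x axis), with members of a group in order of the value. Colour gives H3K4me3 status. Genes marked in the aged list or at both ages lie at 94.1% or above, young-only genes reach down to 70.6%, and the 10 genes below 50%, all in group A or Hist2, are marked in neither list.

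Base composition and motifs of marked and unmarked histone genes were compared as a description. The median GC content of the window was 47.6% in the 13 genes with H3K4me3 at either age and 49.5% in the 54 without, and 51.4% in all protein-coding genes. The observed over expected ratio of CpG was 0.667 and 0.769 in the same classes, and 0.484 in all genes. CCAAT was found before 84.6% and 79.6% of them, TATAAA before 46.2% and 51.9%, and ATTTGCAT before 23.1% and 22.2%. Hist1h2be and Hist1h1d entered by their annotated starts, which lie far from their start codons. These differences were not tested.

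The replacement histone genes, which are expressed outside DNA synthesis, and the genes for histone gene transcription and histone messenger RNA processing were counted in the same way. Of 11 replacement histone genes, 6 had H3K4me3 in the young list and 3 in the aged one, against 33.8% and 23.3% of all genes, and H3f3a and H2afj were marked in both. H3f3a, which encodes histone H3.3, had peaks of 5.53-fold and 4.20-fold in the young and aged lists. The replacement histone genes H3f3b, H2afv and H1fx had no peak in any list. H2afz, which encodes the variant H2A.Z, had a young peak of 6.16-fold and no aged peak. Of 14 transcription and processing genes, 10 were marked in the young list and 6 in the aged one. Npat, the coactivator that sits at histone gene clusters, was marked in both (3.48-fold and 4.42-fold), and so was Cdk2, the kinase that acts on it (3.42-fold and 5.08-fold). Slbp, which encodes the protein that binds the stem-loop, had no peak in any list. None of the 11 and none of the 14 genes had H3K27me3 at either age, against 16.0% of all genes in the young list and 8.24% in the aged one, shares that lists of this length could miss. Aged H2AK119ub1 was at 1 (H2afy2) and 2 (Npat and Zfp473), against 14.0% of all genes.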

How the data were processed

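The deposited files were 6 lists of peaks, 1 per mark and age. The authors cross-linked HSCs, digested chromatin with micrococcal nuclease and sonicated it, and aligned single reads to mm10 with Bowtie2. MACS2 2.2.6 is named in the submitters' processing notes. The authors' lists give fold enrichment over background as a ratio, and −log10 p- and q-values, per peak. For broad regions these are averages. Names of H3K4me3 peaks carry a pair of library numbers and those of broad regions 1, so it is uncertain whether both replicates entered the broad lists. Bowtie2 reports 1 place per read by default, also where several fit equally.

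Start sites of protein-coding transcripts came from GENCODE M21 (basic set, chromosomes 1 to 19, X and Y), and sequence from the GRCm38.p6 assembly, which has the mm10 coordinates. Overlaps were counted in Python 3.11.15 with numpy 2.4.6 and pandas 2.3.3, Wilson 95% intervals with scipy 1.17.1, and repeated words with numba 0.67.0 on both strands. A count of 0 was given the limit that 3 counts allow. Intervals and limits cover counting error only. The code was tested on simulated windows, peaks and repeats. Broad regions were ranked by width and H3K4me3 peaks by −log10 q. Reads were recovered with a tolerance of 0.005 in log10 p. Depth of the broad lists is unknown. Genes named were those with H3K4me3 at both ages, with any Polycomb region, with the highest −log10 q, and examples of the rest. The members and lists were chosen with earlier results of these data known. Of the lists of cell type markers, 1 HSC gene and the genes of other blood cells are not reported here.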

Additional observations from a re-analysis of the deposited data

How the results depend on the processing

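No paired analysis was possible because the peaks were pooled before deposition and carry no value per replicate, so no replicate was left out either. With windows of 500 bp, 7 and 2 histone genes had H3K4me3 in the young and aged lists, 0 had aged H3K27me3 and 1 had aged H2AK119ub1, against 29.9%, 20.2%, 5.67% and 8.91% of all genes. Windows of 2500 bp gave 5 genes with H3K4me3 at both ages, against 18.9% of all genes. A −log10 q of at least 3 left 0 genes with aged H3K27me3 and 0 with aged H2AK119ub1, with 0.352% and 1.14% of all genes left, so that these counts say nothing particular of histone genes. Lists cut to equal length gave 6 genes with young H3K4me3 (4 aged) and 0 with aged H2AK119ub1, against 23.4% (23.3% aged) and 3.53% of all genes. Requiring 50% of a peak inside the window left 1 gene with aged H3K27me3, against 6.90% of all genes. By construction these settings use fewer peaks or other windows. Fewer histone genes had H3K4me3 in the aged than in the young list under all 7 alternatives, the 1 added after seeing the data (start codons) included, and the same held for the counts over all protein-coding genes. The young list was the longer one in each alternative except the lists cut to equal length, so they are not separate support. At equal length the shares of all genes were nearly level (23.4% and 23.3%). No histone gene had a young Polycomb mark under any of the alternatives. The unknown depth of the broad lists and the lack of replicates limit every comparison of the ages.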
